A study of Mus musculus with 32 samples.

Results

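The genes described here are 10 whose transcripts stood lower in the Sox2 pull-down of mouse cochlea 6 h after loud noise than in the pull-down of cochleae without noise: Vgf, Pnck, Pnma2, Ndufa4l2, Necab2, Rec8, Bex2, Nrsn2, Cpt1c and Mdk. They are 10 of the 43947 genes listed in the Sox2 libraries, and all 10 are also among the 39399 genes listed in the Prestin libraries. They were chosen by that difference in the Sox2 pull-down at 6 h, so their values in it are a description and support nothing, and only libraries outside it are tested. All mice were 10 weeks old and carried RiboTagHA/+, an allele that puts an HA tag on a ribosomal protein wherever Cre has acted. Sox2Cre/+;RiboTagHA/+ mice have the tag in cells with Cre under Sox2, and their HA immunoprecipitates (IP) are labelled as enriched for supporting cells. PrestinCre/+;RiboTagHA/+ mice have Cre under the outer hair cell gene Prestin (Slc26a5), and their IPs are labelled as enriched for outer hair cells. Mice of each strain either heard no noise or were exposed for 2 h to 105 dB SPL and taken 6 h or 24 h later, and from each whole cochlear sample both the IP and the untreated total RNA (input) were sequenced. That gives 32 libraries in 12 groups, with 3 libraries in each Prestin group, 2 in each Sox2 group without noise, 2 in each Sox2 group at 6 h and 3 in each Sox2 group at 24 h.

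A RiboTag IP collects ribosomes, and so reads the transcripts that are on them in the tagged cells, with some RNA of other cells carried along. Sox2 is known in the cochlea as a gene of supporting cells, the cells that surround the hair cells, and of the glia of the auditory nerve, so Cre under Sox2 can tag both. Most of the 10 genes are known from neurons. Vgf encodes a secreted precursor of neuropeptides related to the granins, Pnck a calmodulin-dependent protein kinase, and Pnma2 a paraneoplastic antigen of the Ma family that derives from a retrotransposon capsid gene. Necab2 encodes a calcium-binding protein of neurons, Nrsn2 a membrane protein of neuronal vesicles, and Bex2 a small X-linked protein abundant in brain. Cpt1c is the neuronal, endoplasmic reticulum relative of the carnitine palmitoyltransferases. The other members are not known as neuronal genes: Ndufa4l2 is a hypoxia-induced mitochondrial protein and a marker of brain pericytes, Rec8 is the kleisin subunit of meiotic cohesin, and Mdk (midkine) is a secreted heparin-binding growth factor.

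The genes lie on 7 chromosomes and are all protein-coding. In GRCm38 with the GENCODE M21 annotation, Vgf spans chr5:137026392-137033351 on the plus strand, Pnck chrX:73655994-73660117 on the minus strand and Pnma2 chr14:66911170-66921023 on the plus strand. Ndufa4l2 spans chr10:127514967-127517154 (plus), Necab2 chr8:119446719-119472640 (plus), Rec8 chr14:55618037-55625395 (plus) and Bex2 chrX:136066564-136068236 (minus). Nrsn2 spans chr2:152368755-152376638 (minus), Cpt1c chr7:44959372-44974851 (minus) and Mdk chr2:91929805-91932297 (minus). Only Rec8 and Pnma2, Pnck and Bex2, and Nrsn2 and Mdk share a chromosome.

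The start regions of the 5 members with an entry (Bex2, Cpt1c, Necab2, Nrsn2 and Rec8) are shown, to let the sequences of genes chosen on 1 contrast be compared. Each is the RefSeq window of GRCm38.p6 from 250 bases before to 50 bases after the gene's start, read 5′ to 3′ on the gene's strand, and capitals mark GGGCGG (GC box) or CCAAT on either strand, so that CCGCCC and ATTGG are matches on the other strand.
Bex2, chrX:136068187-136068486, minus: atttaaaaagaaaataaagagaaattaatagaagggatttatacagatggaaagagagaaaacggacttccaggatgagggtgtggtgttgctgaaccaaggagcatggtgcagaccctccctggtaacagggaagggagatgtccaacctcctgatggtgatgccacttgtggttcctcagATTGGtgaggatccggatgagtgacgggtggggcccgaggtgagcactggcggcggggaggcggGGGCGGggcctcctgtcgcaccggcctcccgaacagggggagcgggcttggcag
Rec8, chr14:55617916-55618215, plus: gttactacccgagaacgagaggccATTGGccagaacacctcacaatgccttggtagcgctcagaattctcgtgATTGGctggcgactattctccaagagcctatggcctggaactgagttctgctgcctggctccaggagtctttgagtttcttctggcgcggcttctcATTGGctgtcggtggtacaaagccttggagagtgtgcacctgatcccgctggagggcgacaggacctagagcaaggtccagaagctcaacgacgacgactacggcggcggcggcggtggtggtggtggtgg
Necab2, chr8:119446469-119446768, plus: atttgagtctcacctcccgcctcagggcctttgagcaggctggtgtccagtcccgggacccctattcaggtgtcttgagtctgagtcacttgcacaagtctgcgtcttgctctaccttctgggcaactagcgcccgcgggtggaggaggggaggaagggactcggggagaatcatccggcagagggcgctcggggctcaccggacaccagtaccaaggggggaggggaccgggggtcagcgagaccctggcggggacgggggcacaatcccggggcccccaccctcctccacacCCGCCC
Cpt1c, chr7:44974802-44975101, minus: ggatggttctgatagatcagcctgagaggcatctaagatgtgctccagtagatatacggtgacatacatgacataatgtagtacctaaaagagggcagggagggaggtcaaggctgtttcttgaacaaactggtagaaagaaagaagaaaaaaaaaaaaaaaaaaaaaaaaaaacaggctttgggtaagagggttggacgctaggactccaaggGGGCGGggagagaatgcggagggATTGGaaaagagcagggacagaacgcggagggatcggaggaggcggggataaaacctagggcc
Nrsn2, chr2:152376556-152376855, minus: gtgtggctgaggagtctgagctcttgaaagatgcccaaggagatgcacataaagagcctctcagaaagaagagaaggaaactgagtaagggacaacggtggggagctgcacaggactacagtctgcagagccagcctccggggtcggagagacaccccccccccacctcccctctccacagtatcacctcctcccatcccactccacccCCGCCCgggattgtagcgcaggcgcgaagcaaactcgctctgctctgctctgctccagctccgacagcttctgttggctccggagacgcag
A GC box was found in 4 of the 5 members' windows, all but that of Rec8, against 35.7% of the 32851 windows of the same length in the table. A CCAAT was found in 3 of 5 (Bex2, Cpt1c and Rec8), against 37.4% of all windows, and Rec8 held 3 of them. The 2 motifs do not overlap in any of these windows. These matches are a description of the letters only. No motif was found in all 5.

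As a check of the labels, the gene that Cre is under was compared between IP and input. The Sox2 libraries without noise and at 6 h were not part of this check. Sox2 was higher in the Sox2 IP than in input at 24 h (log2 fold change 3.34 ± 0.17 SE on the log2(TPM + 1) scale, adjusted p = 0.00015, limma with Benjamini-Hochberg adjustment), and Slc26a5 was higher in the Prestin IP than in input (2.46 ± 0.23, adjusted p = 1.61e-07, limma). All values are TPM (transcript abundance corrected for length and scaled to a total of 1000000 in every library), so the sequencing depth is unknown and no counting error can be given. The 4 Sox2 libraries at 6 h stood apart in the number of genes listed above 0. It was 16537 to 16813 in the IPs and 15929 to 16966 in the inputs at 6 h, against 17395 to 20434 in the other Sox2 IPs, 19748 to 21239 in the other Sox2 inputs and 18592 to 19764 in all Prestin libraries. Mitochondrially encoded genes took 7.21% to 8.83% of TPM in the 6 h Sox2 IPs, against 3.07% to 4.35% in the Sox2 IPs without noise. All results on the Sox2 strain at 6 h rest on these libraries, there are no others of that group, and the part of this difference in them was not tested.

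In the Sox2 IPs the 10 genes were high without noise, much lower at 6 h, and mostly in between at 24 h. Their summed level was 1285 to 1418 TPM without noise, 82.5 to 104.7 TPM at 6 h and 202 to 421 TPM at 24 h, each over the libraries of its group. Vgf stood at 135 and 164 TPM without noise, 2.18 and 1.21 TPM at 6 h and 26.5, 49.5 and 4.64 TPM at 24 h. The 24 h libraries of this neuropeptide precursor differed widely, and the lowest of them lay near the 6 h libraries. The kinase gene Pnck stood at 118 and 113 TPM without noise, 2.56 and 4.09 TPM at 6 h and 26.5, 29.9 and 10.7 TPM at 24 h. Bex2, the most abundant member, stood at 889 and 727 TPM without noise, 42 and 66.8 TPM at 6 h and 151, 216 and 91.3 TPM at 24 h. In both genes the 3 times do not overlap.

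Some members were listed at or next to 0 at 6 h. Pnma2 stood at 25.1 and 20.1 TPM without noise, 0.052 and 0 TPM at 6 h and 2.66, 8.41 and 3.96 TPM at 24 h. Necab2 stood at 18.4 and 14.1 TPM without noise, 0.0099 and 0.048 TPM at 6 h and 1.95, 0.306 and 0.596 TPM at 24 h, and so had the lowest 24 h level relative to that without noise, 5.85% of its mean. For both, the capsid-like antigen and the calcium-binding protein, the 6 h values are too low for a TPM table to tell low from absent. Rec8 stood at 9.66 and 24.9 TPM without noise, 0.035 and 0 TPM at 6 h and 9.93, 7.93 and 6.44 TPM at 24 h. Ndufa4l2 stood at 16.2 and 23.4 TPM without noise, 0.118 and 0.143 TPM at 6 h and 13.1, 5.66 and 9.99 TPM at 24 h. Rec8 was the only member whose 24 h libraries reached those without noise, since 9.93 TPM lies above 9.66 TPM.

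The other 3 members kept a level well above 0 at 6 h. The neuronal vesicle gene Nrsn2 stood at 48.6 and 49.9 TPM without noise, 3.1 and 3.48 TPM at 6 h and 7.35, 13.3 and 8.57 TPM at 24 h. Midkine (Mdk) stood at 137 and 124 TPM without noise, 26 and 22.8 TPM at 6 h and 59.9, 76.9 and 55.2 TPM at 24 h. Cpt1c stood at 21.5 and 24 TPM without noise, 6.34 and 6.19 TPM at 6 h and 15.6, 13.6 and 10.9 TPM at 24 h, the smallest difference of the 10. In these bulk libraries, fewer tagged cells of a type and less RNA per cell cannot be told apart.

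**Figure D1:**
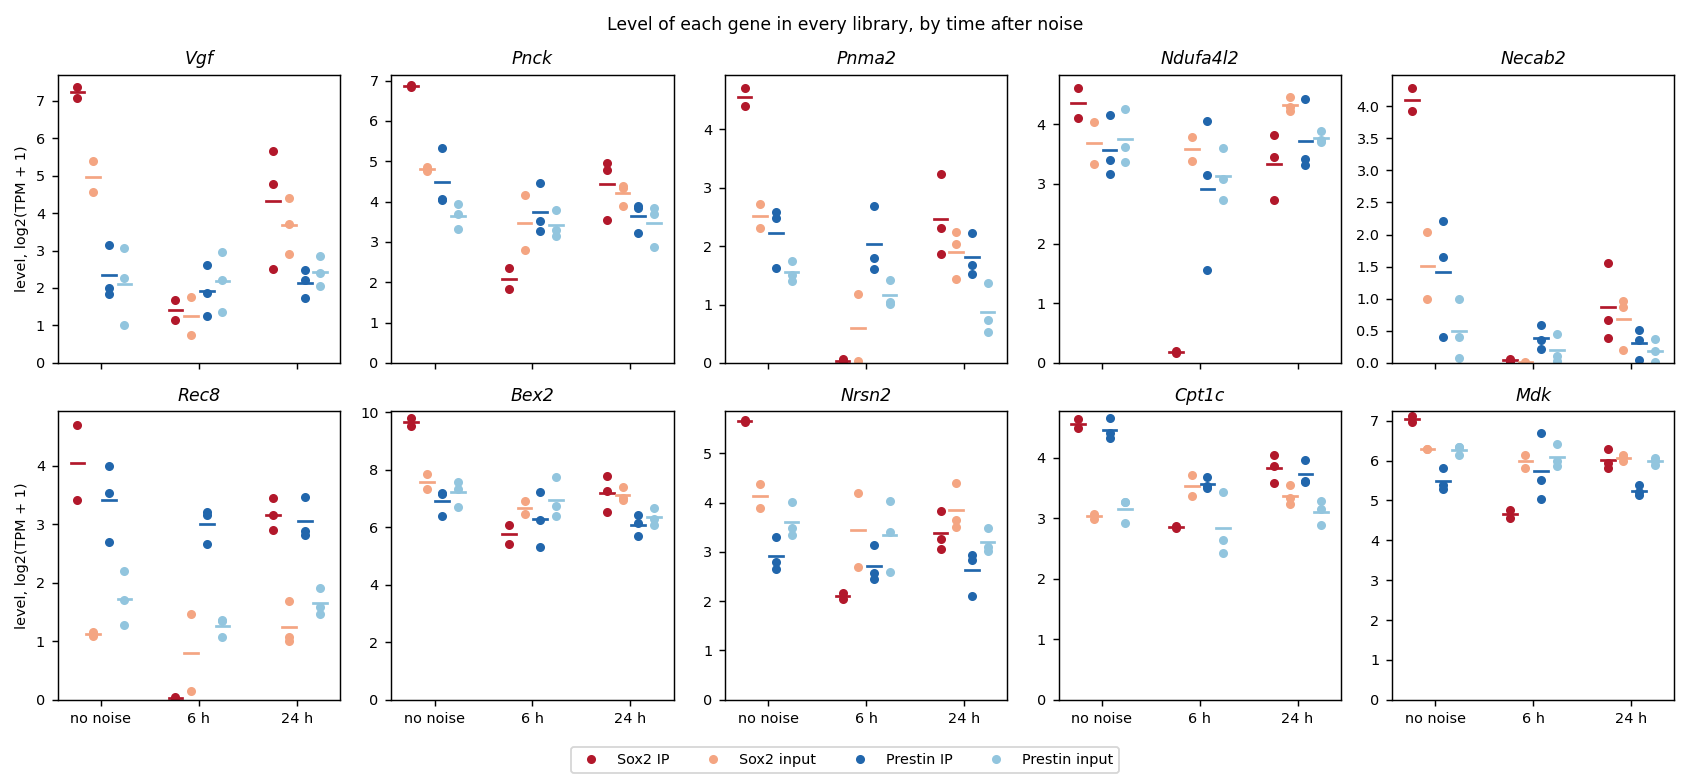
Level of each of the 10 genes (log2(TPM + 1), y axis) in every library, by time after noise (x axis), in Sox2 IP, Sox2 input, Prestin IP and Prestin input; points are libraries and lines are group means. In 7 of the 10 genes both Sox2 IPs without noise lie above the other 30 libraries, and in all 10 both Sox2 IPs at 6 h lie below both Sox2 IPs without noise. The genes were chosen on these Sox2 IPs, so nothing is read from either count.

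On the log2(TPM + 1) scale, the difference between the Sox2 IP at 6 h and that without noise, which chose the genes, ran over the members from -5.82 ± 0.98 (SE) in Vgf to -1.71 ± 0.23 in Cpt1c, with a median of -4.04 beside -0.07 over all 17577 genes fitted. The mean TPM at 6 h was 0.101% (Rec8) to 27.6% (Cpt1c) of the mean without noise. Of all genes, 24 had a lower log2 fold change than Vgf and 1405 a lower one than Cpt1c, so the members are among the lower genes without being its extreme. All 10 members had both 6 h libraries below both libraries without noise, which 24.1% of all genes fitted also had, and nothing is read from this count because the rule used that contrast. For scale, the limma fit called 0.478% of genes lower and 0.216% higher at an adjusted p under 0.05 in this comparison of 2 libraries with 2.

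The Sox2 IPs at 24 h share their unexposed libraries with that contrast, so they are described without a test. The log2 fold changes at 24 h were -2.91 in Vgf, -2.44 in Pnck, -2.08 in Pnma2, -3.23 in Necab2, -2.47 in Bex2 and -2.27 in Nrsn2. They were -1.02 in Ndufa4l2, -0.89 in Rec8, -0.73 in Cpt1c and -1.03 in Mdk. The members' median was -2.17 at 24 h and -4.04 at 6 h, beside 0.14 and -0.07 over all genes. Necab2 had the lowest value at 24 h, -3.23 beside -4.06 at 6 h, where the added 1 TPM limits how low so scarce a transcript can go (its mean TPM was 5.85% of that without noise at 24 h and 0.178% at 6 h). Ndufa4l2 and Rec8 stood 3 log2 units or more closer to the level without noise at 24 h. In 9 of the 10 genes, all but Rec8, the 3 libraries at 24 h lay between those at 6 h and those without noise. The members were chosen for the gap between those 2 groups, and the share of all genes with this order was not counted. Nothing is read from this count.

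Across all libraries, the levels of the members in the Sox2 IPs without noise are given as a description. In 7 genes (Vgf, Pnck, Pnma2, Necab2, Bex2, Nrsn2 and Mdk) both of these libraries lay above the other 30. These libraries are the high side of the contrast that chose the genes, so nothing is read from this count. Its share over all genes was not counted. For Vgf the next library was a 24 h Sox2 IP at 49.5 TPM. In Rec8 and Cpt1c, Prestin IPs without noise reached the same range: Rec8 stood at 15, 5.47 and 10.6 TPM and Cpt1c at 24.2, 20.3 and 19.1 TPM there. Ndufa4l2 was also well represented in whole cochlea, with 15.4 and 9.12 TPM in Sox2 input without noise, 9.48 and 12.9 TPM in Sox2 input at 6 h and 18.5, 20.9 and 17.6 TPM in Sox2 input at 24 h. The 2 whole cochlea samples at 6 h are those whose IPs held 0.12 and 0.14 TPM.

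Set against the input of its own sample, each member stood higher in the Sox2 IP without noise. The typical gene was also higher in Sox2 IPs, with a median of 0.76 at 24 h. The share of all genes above 0 in the unexposed samples was not counted, so nothing is read from the members' count. The difference of IP and input on the log2(TPM + 1) scale was above 0 in both unexposed samples for all 10 genes. It was 2.53 and 1.99 in Vgf without noise, 0.93 and -0.62 at 6 h, and 1.07, 1.25 and -0.42 at 24 h. In Bex2 it was 1.97 and 2.18 without noise, -1.03 and -0.81 at 6 h, and 0.24, 0.36 and -0.43 at 24 h. Ndufa4l2 had the lowest values, with 0.08 and 1.27 without noise, -3.23 and -3.60 at 6 h, and -0.47, -1.72 and -0.76 at 24 h. The samples at 6 h and without noise are those of the contrast that chose the genes, and these values are given without a test.

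At 24 h, in libraries outside that contrast, 9 members could be tested for enrichment, since Necab2 did not reach 1 TPM in 3 of the 6 libraries. Rec8, the cohesin subunit, was higher in the Sox2 IP than in input: it stood at 9.93, 7.93 and 6.44 TPM in the IPs and 1, 2.22 and 1.09 TPM in the inputs (log2 fold change 1.92 ± 0.25 SE, adjusted p = 0.00144, limma). The 2 groups do not overlap. Ndufa4l2 was lower in the IP than in input, at 13.1, 5.66 and 9.99 TPM in the IPs and 18.5, 20.9 and 17.6 TPM in the inputs (-0.98 ± 0.28 SE, adjusted p = 0.0252, limma). Without sample 2 or without sample 3 this call was lost, with adjusted p up to 0.106. Vgf (0.63 ± 0.86), Pnck (0.22 ± 0.40), Pnma2 (0.57 ± 0.40), Bex2 (0.06 ± 0.32), Nrsn2 (-0.47 ± 0.31), Cpt1c (0.46 ± 0.16) and Mdk (-0.07 ± 0.14) did not pass. With the IP and input of a sample taken as a pair, Nrsn2 also passed (-0.47, adjusted p = 0.0376, limma).

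Enrichment has to be read beside the typical gene, which was higher in IPs. Over all genes the median log2 fold change was 0.76 in the Sox2 comparison at 24 h, where 60.3% of genes were called higher and 2.42% lower, and the members' median was 0.22. Relative to the median gene, Rec8 stood 1.16 higher, and the other 8 members tested stood below it, between -1.74 in Ndufa4l2 and -0.13 in Vgf. With median-of-ratios scaling, which centres the typical gene near 0, the split of calls was 2592 higher and 2734 lower in place of 9397 higher and 377 lower, and Vgf (-0.22), Pnck (-0.66), Pnma2 (-0.15), Bex2 (-0.87) and Cpt1c (-0.40) changed sign. Rec8 was still higher (1.22, adjusted p = 0.018, limma) and Ndufa4l2 lower (-1.84, adjusted p = 0.00438) with that scaling, and Nrsn2 (-1.32, adjusted p = 0.027) and Mdk (-0.99, adjusted p = 0.00695) were then also lower.

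Over the 18 Prestin libraries, 3 of the 9 members tested were higher in the IP than in input and 2 were lower, beside 68.5% of all genes called higher and 7.68% lower. Rec8 (1.61 ± 0.18 SE, adjusted p = 9.81e-07), Cpt1c (0.89 ± 0.12, adjusted p = 1.13e-05) and Pnma2 (0.83 ± 0.19, adjusted p = 0.00103) were higher, and Nrsn2 (-0.64 ± 0.20, adjusted p = 0.00862) and Mdk (-0.62 ± 0.18, adjusted p = 0.00539) were lower, all by limma. Against the median gene, at 0.82, only Rec8 stood well higher (0.80), whereas Cpt1c (0.07) and Pnma2 (0.01) were at it. With median-of-ratios scaling the split of calls was 5649 higher and 5456 lower in place of 11885 higher and 1333 lower, Pnck (-0.54) and Cpt1c (-0.088) changed sign, Pnma2 no longer passed (0.12, adjusted p = 0.567, limma), and Ndufa4l2 was lower (-1.12, adjusted p = 0.00332). Rec8 remained higher under it (0.78, adjusted p = 0.00168, limma). With the IP and input of a sample as a pair, Bex2 was also lower (-0.41, adjusted p = 0.00114, limma). Rec8 was therefore the member enriched in both pull-downs, in each case in libraries that the choice of genes did not use.

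**Figure D2:**
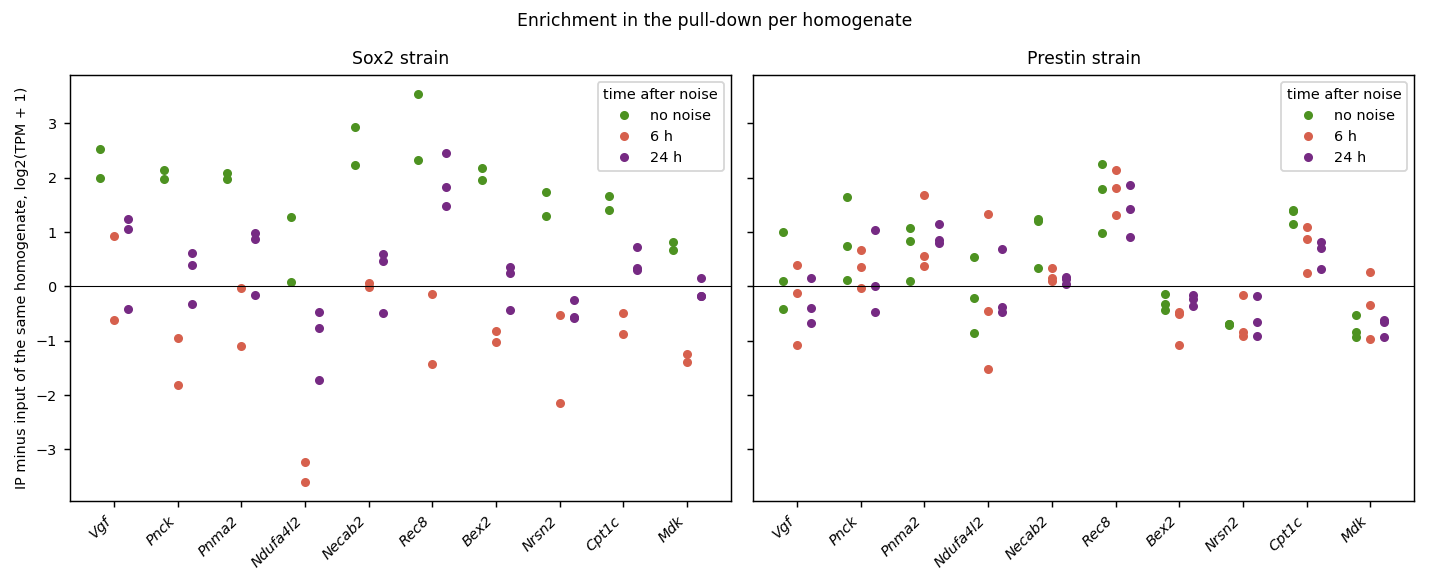
IP minus input of the same sample (log2(TPM + 1), y axis) for each gene (x axis), with Sox2 samples on the left and Prestin samples on the right; points are samples, coloured by time after noise. Without noise all 10 genes lie above 0 in both Sox2 samples, and Ndufa4l2 lies at -3.23 and -3.60 at 6 h. These samples are those of the contrast that chose the genes, and the share of all genes above 0 was not counted.

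The Prestin IPs ask whether the same genes were lower after noise in the pull-down of the other strain, and 1 of 9 members tested was. Cpt1c stood at 10.5, 11.8 and 10.4 TPM at 6 h, against 24.2, 20.3 and 19.1 TPM without noise (log2 fold change -0.89 ± 0.16 SE, adjusted p = 0.0316, limma), and the groups do not overlap. At 24 h it stood at 11.3, 14.7 and 11.2 TPM, against the same libraries without noise (-0.73 ± 0.16 SE, adjusted p = 0.0415, limma), again with no overlap. Among all genes 4.77% were called lower and 0.856% higher at 6 h, and 5.14% lower and 1.1% higher at 24 h, and with 9 genes tested a count of 1 is not told apart from that background. In the same IPs 0 of 10 outer hair cell markers passed by limma at 6 h, with 4 at an unadjusted p under 0.05, as were 26.2% of all genes. Their median was -0.69 at 6 h and -0.15 at 24 h, beside -0.17 and -0.15 over all genes. The part of outer hair cell RNA in the values of Cpt1c was not tested. The call of Cpt1c was not stable. It was lost in 8 of 9 fits at 6 h and 9 of 9 fits at 24 h that left out 1 library (adjusted p 0.0463 to 0.112 at 6 h and 0.0521 to 0.158 at 24 h), and with median-of-ratios scaling (-0.67, adjusted p = 0.0644 at 6 h and -0.54, adjusted p = 0.0866 at 24 h, limma). That scaling also moved the split of calls to 137 higher and 170 lower in place of 143 higher and 797 lower at 6 h, and to 233 higher and 340 lower in place of 183 higher and 858 lower at 24 h.

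None of the other 8 members passed in the Prestin IPs. Vgf stood at 1.38, 2.66 and 5.12 TPM at 6 h, against 3.04, 7.95 and 2.6 TPM without noise (-0.43 ± 0.46 SE), and the groups overlap. Bex2 stood at 38.8, 149 and 75.5 TPM at 6 h, against 146, 82.9 and 139.9 TPM without noise, and Pnck at 8.6, 21 and 10.4 TPM at 6 h, against 39.2, 15.5 and 15.7 TPM without noise, with overlap in both. Necab2 was too low for the test, with 0.156, 0.286 and 0.511 TPM at 6 h and 0.32, 2.13 and 3.62 TPM without noise. Mdk was the 1 member with a fold change above 0 at 6 h (0.25), and this rests on 1 library, since its levels were 31.7, 103 and 44.9 TPM at 6 h, against 41.2, 55.3 and 38 TPM without noise. The members' median was -0.43 at 6 h and -0.35 at 24 h, beside -0.17 and -0.15 over all genes.

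Whole cochlea shows whether transcripts were lower in the tissue. Over the 16 inputs of both strains, with strain in the fit, 0 of 9 members passed at 6 h by limma, though 4 had an unadjusted p under 0.05, as did 25% of all genes, and among all genes 4.71% were called lower and 3.83% higher. The log2 fold changes were -1.44 ± 0.64 SE in Vgf (adjusted p = 0.18, limma), -1.01 ± 0.33 in Pnma2 (adjusted p = 0.0739), -0.67 in Pnck (adjusted p = 0.164) and -0.51 in Bex2 (adjusted p = 0.269), beside a median over all genes of -0.09. Cpt1c stood at 0.01, with -0.32 in Prestin inputs alone and 0.51 in Sox2 inputs alone. Leaving out 1 library brought single members past the threshold: Bex2 (-0.79, adjusted p = 0.0329) and Mdk (-0.33, adjusted p = 0.0166) without replicate 2 of the Prestin inputs at 6 h, and Pnma2 (-1.19, adjusted p = 0.0479) without replicate 3 of that group. Median-of-ratios scaling moved the split of calls to 796 higher and 429 lower, in place of 544 higher and 669 lower. At 24 h, 0 of 9 members passed by limma, with 2 at an unadjusted p under 0.05, as were 15.5% of all genes, while 0.662% of all genes were called lower and 3.78% higher.

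The 2 strains differed in what their inputs showed, and this difference was not tested. In Sox2 inputs, from the same samples as the IPs that chose the genes, Vgf stood at 0.672 and 2.41 TPM at 6 h, against 22.5 and 40.6 TPM without noise, with no overlap (log2 fold change -3.71 ± 0.59 SE, adjusted p = 0.0607, limma). Pnma2 stood at 1.26 and 0.02 TPM at 6 h, against 5.63 and 3.97 TPM without noise, and Necab2 at 0.013 and 0 TPM at 6 h, against 3.1 and 0.985 TPM without noise. These inputs are not independent of the choice of genes. By limma 0 of 9 members passed in them, with 5 at an unadjusted p under 0.05, as were 19.6% of all genes, and 0.683% of all genes were called lower. Of those 5, Vgf, Pnck, Pnma2 and Bex2 stood lower at 6 h and Cpt1c higher. Cpt1c stood at 9.28 and 12.2 TPM at 6 h, against 7.44 and 6.91 TPM without noise (0.51 ± 0.18 SE, adjusted p = 0.208, limma). In Prestin inputs, which the choice did not use, Vgf stood at 1.58, 6.72 and 3.68 TPM at 6 h, against 1.01, 7.36 and 3.78 TPM without noise, in full overlap (0.07 ± 0.56 SE, adjusted p = 0.957, limma). There 0 of 9 members passed by limma at 6 h, with 1 at an unadjusted p under 0.05 (20.7% of all genes) and 2.2% of all genes called lower, and 0 of 9 at 24 h, with 2 at an unadjusted p under 0.05 (20.3% of all genes) and 2.05% of all genes called lower. Without noise the strains themselves stood apart in Vgf, with 22.5 and 40.6 TPM in Sox2 inputs and no Prestin input above 7.36 TPM.

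**Figure D3:**
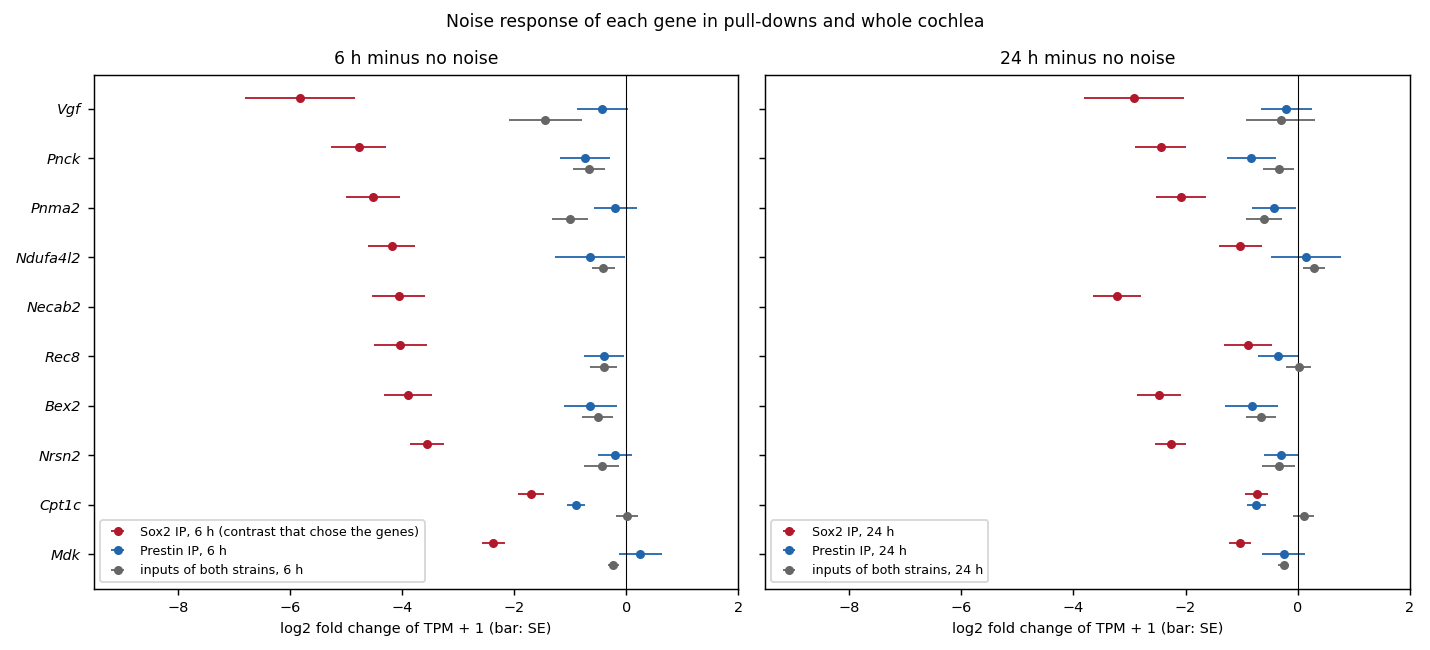
Log2 fold change of TPM + 1 (x axis; bars are SE) of each gene at 6 h (left) and 24 h (right) against no noise, in Sox2 IPs, Prestin IPs and the inputs of both strains. At 6 h the Sox2 IP values, on which the genes were chosen, run from -5.82 to -1.71, and among the other points only Cpt1c in the Prestin IPs passed the test.

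Of the relatives of the members, 1 was called lower in the Sox2 IPs at 6 h. For the counts of each list in this contrast, 18.1% of all genes fitted had an unadjusted p under 0.05, and counts near that share are not told apart from it. Tceal6, of the X-linked Tceal family related to the Bex genes, stood at 14.5 to 23.4 TPM at 6 h, against 161 to 258 TPM without noise (log2 fold change -3.40 ± 0.31 SE, adjusted p = 0.0198, limma). It was called in 3 of 7 fits that left out 1 library, with adjusted p up to 0.0559. Among the 9 Bex and Tceal genes tested all 9 log2 fold changes were below 0 (median -1.07) and 6 had an unadjusted p under 0.05; Tceal3 stood at -2.25 (adjusted p = 0.0889). Of the 12 granins and genes of neuropeptide processing, to which Vgf belongs by function, 0 passed by limma, 6 had an unadjusted p under 0.05, and all 12 were below 0 (median -1.71). In that list the carboxypeptidase Cpe, which trims neuropeptides, stood at -2.81 (adjusted p = 0.0706, limma) and the convertase inhibitor Pcsk1n at -2.71 (adjusted p = 0.0889). Their list summed to 234 to 319 TPM at 6 h, against 1168 to 1284 TPM without noise, without overlap. The median log2 fold change over all genes was -0.07, and the share of all genes below 0 was not counted. These lists and those of the other families were built around members that this contrast chose. Nothing is therefore read for the members from the lists' sums or counts below 0.

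Other families of the members also had medians below 0, without a call. Of the 5 Pnma genes 0 passed by limma and 2 had an unadjusted p under 0.05, with all 5 below 0 (median -2.31), among them Pnmal2 at -1.93 (adjusted p = 0.071) and Pnmal1 at -3.52 (adjusted p = 0.229). Of the 9 calmodulin kinase genes, the family of Pnck, 0 passed by limma and 6 had an unadjusted p under 0.05 (median -0.95), among them the upstream kinase Camkk1 at -2.12 (adjusted p = 0.0943) and Camk2a at -4.22 (adjusted p = 0.103). Nrsn1, the relative of Nrsn2, stood at -1.88 (adjusted p = 0.245, limma), Necab3 at -0.66 (adjusted p = 0.513) and Ndufa4, the paralog of Ndufa4l2, at -0.56 (adjusted p = 0.317). The relatives of Rec8, Cpt1c and Mdk lay around 0. Of 9 cohesin genes 0 passed by limma and 0 had an unadjusted p under 0.05 (median 0.25; Rad21, the mitotic kleisin, 0.27, and Smc1a 0.53). Of 5 carnitine acyltransferase genes 0 passed by limma and 1 had an unadjusted p under 0.05 (median 0.04; Cpt1a 0.90 and Crot -0.34), and of 11 midkine relatives and receptors 0 passed and 3 had one (median 0.11; Itgb1 1.07 and Gpc2 -2.40).

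Neuron markers gave values on both sides of 0. Of 24 general neuron markers 0 passed by limma in the Sox2 IP at 6 h, 12 had an unadjusted p under 0.05, and 15 stood below and 9 above 0 (median -0.47). Gap43 (-3.08), Uchl1 (-2.33, adjusted p = 0.0693) and Rtn1 (-1.81, adjusted p = 0.0678) were low, whereas the intermediate filament gene Prph stood at 1.98 and Nefl at 0.65. Gap43, Prph and Nefl were picked after their values were seen. The summed level of the neuron list was 1716 to 2723 TPM at 6 h and 2167 to 2383 TPM without noise, so these groups overlap. Nothing is read from the members' own sums beside it, because this contrast chose the members. The 10 genes are called here by the contrast that chose them, and the part of neuronal RNA in their values was not tested. In the Prestin IPs 0 of 21 neuron markers passed by limma at 6 h (3 at an unadjusted p under 0.05, beside 26.2% of all genes) and 0 of 21 at 24 h (6 at one, beside 26.3%). Their median there was -0.22 at 6 h and -0.60 at 24 h, beside -0.17 and -0.15 over all genes. In the inputs of both strains it was -0.19 and -0.40, beside -0.09 and 0.02, with 0 of 21 passing at each time. Their sum was 1120 to 1608 TPM in Prestin IPs at 24 h, against 1822 to 2745 TPM without noise. In Sox2 inputs the sums at 24 h and without noise overlap.

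Markers of other cells gave no calls in the same contrast. Of 18 supporting cell markers 0 passed by limma and 5 had an unadjusted p under 0.05 (median 0.26), among them Hes5 at -4.83 (adjusted p = 0.141) and Otoa at 0.72 (adjusted p = 0.164). Of 17 Schwann and satellite glia markers 0 passed and 3 had an unadjusted p under 0.05 (median 0.49; Foxd3 1.45), and their summed level was 6900 to 8849 TPM at 6 h, against 3261 to 7244 TPM without noise. All 17 of these glial markers were called higher in the Sox2 IP than in input at 24 h, beside 60.3% of all genes. Their median was 2.11, beside 0.76 over all genes. With median-of-ratios scaling 13 of 17 were called higher (median 1.175), where 2592 of all genes were higher and 2734 lower. The supporting cell pull-down therefore also held glial transcripts. Of 9 pericyte and smooth muscle markers, the cells Ndufa4l2 marks in brain, 0 passed and 2 had an unadjusted p under 0.05, with Higd1b at -3.20 (adjusted p = 0.0636) and Rgs5 at 0.83 (adjusted p = 0.0938). Of 8 macrophage markers 0 passed and 3 had an unadjusted p under 0.05, with Mpeg1 at 3.78 (adjusted p = 0.0716) and Cd68 at 2.16 (adjusted p = 0.118), and their sum was 203 to 250 TPM at 6 h, against 100.2 to 143 TPM without noise. Outer and inner hair cell (0 of 9 and 0 of 3), endothelial (0 of 8) and melanocyte (0 of 5) markers gave 0 calls, with 0, 0, 1 and 1 at an unadjusted p under 0.05. The part of these cells in the members' values was not tested.

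**Figure D4:**
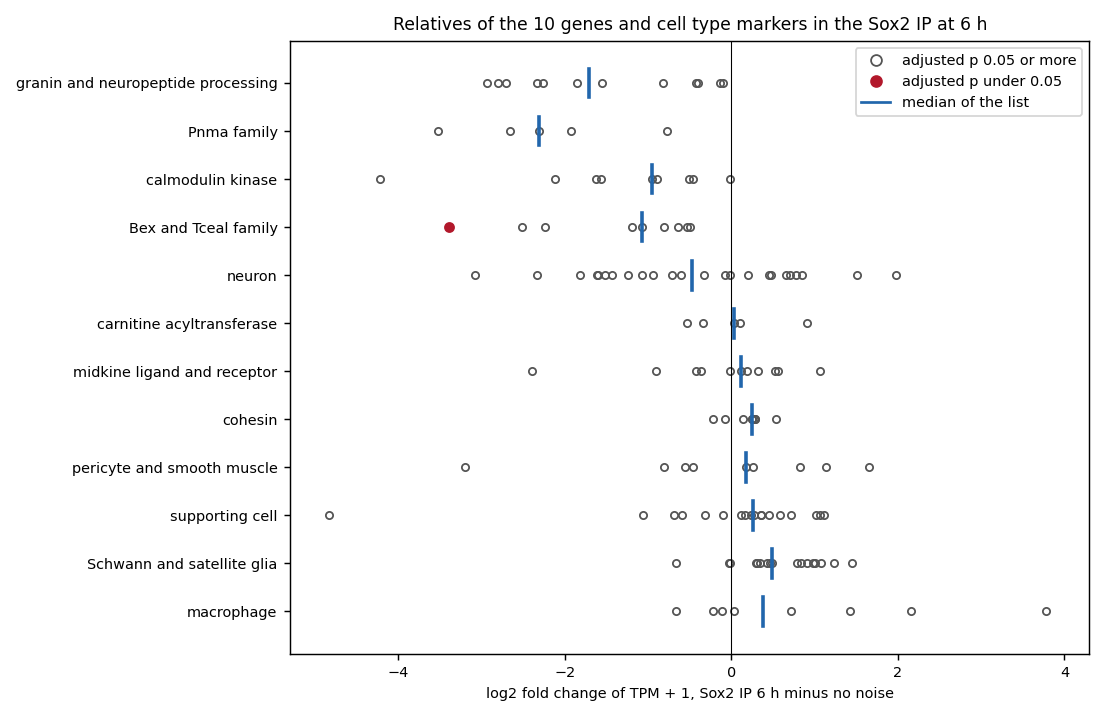
Log2 fold change of TPM + 1 in Sox2 IPs at 6 h against no noise (x axis) for each gene of the members' families and of cell type marker lists (y axis); filled points passed the test and blue lines are list medians. The granin, Pnma, calmodulin kinase and Bex lists lie below 0, with Tceal6 as the filled point, and the neuron list spreads on both sides of 0. The family lists were built around genes that this contrast chose, so nothing is read for the members from their side of 0.

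Of the relatives, 3 genes passed the test in the Prestin IPs at 6 h and 2 at 24 h, the comparisons in which Cpt1c was the member called. Of 11 midkine relatives and receptors tested, 1 was higher and 1 lower at each time. The proteoglycan gene Sdc4, a midkine receptor, was higher at 6 h (log2 fold change 0.86, adjusted p = 0.0242, limma; called in 3 of 9 fits that left out 1 library), and Sdc3 was higher at 24 h (0.82, adjusted p = 0.0354; called in 2 of 9). Gpc2, another cell surface proteoglycan, was lower at 6 h (-1.24, adjusted p = 0.0151, limma; called in 8 of 9) and 24 h (-1.43, adjusted p = 0.0104; called in 7 of 9). Camk1, a calmodulin kinase of the family of Pnck, stood at 36.1 to 39.1 TPM at 6 h, against 55.3 to 81.8 TPM without noise in the Prestin IPs, and was called lower (-0.90, adjusted p = 0.0329, limma). That call held in 1 of 9 fits that left out 1 library and was lost with median-of-ratios scaling (-0.67, adjusted p = 0.0776, limma).

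In the inputs, where 0 members passed by limma, single relatives did. At 6 h Sdc4 (0.76, adjusted p = 1.42e-06, limma; called in 16 of 16 fits that left out 1 library) and Sdc1 (0.96, adjusted p = 0.000562) were higher. At 24 h Sdc3 (0.62, adjusted p = 0.000309, limma) and Lrp1 (0.61, adjusted p = 0.00154) were higher. Mdk itself, their ligand, had a log2 fold change of -0.23 at 6 h over the inputs of both strains (adjusted p = 0.179, limma). It stood at 57.1 to 85.0 TPM at 6 h, against 69.2 to 79.9 TPM without noise in the Prestin inputs. In the Sox2 inputs it stood at 69.9 and 55.2 TPM at 6 h, against 76.8 and 78.0 TPM without noise. Of 10 midkine relatives and receptors tested, 2 were higher and 1 lower at 6 h, beside 3.83% and 4.71% of all genes. Of the carnitine enzymes, Crot was lower at 6 h (-0.89, adjusted p = 6.01e-05, limma) and Cpt2 too (-0.38, adjusted p = 0.0398; called in 9 of 16 fits that left out 1 library), while Cpt1c, the member, was at 0.01. Camk1 was lower at 6 h in the inputs as well (-0.38, adjusted p = 0.0458, limma; called in 3 of 16), and so was the cohesin regulator Pds5b (-0.24, adjusted p = 0.049; called in 1 of 16). Both calls were lost with median-of-ratios scaling, Camk1 at -0.31 (adjusted p = 0.0972, limma) and Pds5b at -0.19 (adjusted p = 0.11). With that scaling 1 carnitine gene was still called lower in place of 2.

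Cell type markers were also called in these libraries, though most markers of each list did not pass. In the inputs at 6 h the tectorial membrane gene Ceacam16 (0.67, adjusted p = 0.000134, limma), the glial receptor Erbb3 (0.47, adjusted p = 0.00745) and the melanocyte gene Pmel (0.90, adjusted p = 0.00759) were higher. The gap junction gene Gjb6 (-0.57, adjusted p = 0.000214, limma), the complement gene C1qa (-0.63, adjusted p = 0.0125) and Lbh of the outer hair cell list (-0.28, adjusted p = 0.03; called in 11 of 16 fits that left out 1 library) were lower. The call of Lbh was lost with median-of-ratios scaling. Among 17 glial markers 1 was called, with 12 below 0 (median -0.05), and among 5 melanocyte markers 1 (median 0.03). Supporting cell markers gave 4 higher and 2 lower of 18. Outer hair cell and macrophage markers gave 1 lower of 7 each. Over all genes 3.83% were called higher and 4.71% lower. At 24 h the macrophage genes Cd68 (3.15, adjusted p = 7.24e-06, limma) and C1qb (0.99, adjusted p = 0.00262), Ceacam16 (0.41, adjusted p = 0.00453), Gjb2 (0.40, adjusted p = 0.00635) and Erbb3 (0.35, adjusted p = 0.047; called in 4 of 16) were higher. The call of Erbb3 at 24 h was lost with median-of-ratios scaling. By list, 3 of 7 macrophage, 3 of 18 supporting cell and 1 of 17 glial markers were higher, beside 3.78% of all genes. Of the glial markers 12 stood below 0 (median -0.11). In the Prestin IPs at 24 h Gjb2 (1.12, adjusted p = 0.0288, limma; called in 4 of 9) and Mpeg1 (1.65, adjusted p = 0.0349; called in 2 of 9) were higher and the myelin gene Mag (-1.13, adjusted p = 0.0322; called in 3 of 9) was lower. They were the 1 call each of 18 supporting cell, 7 macrophage and 17 glial markers, beside 1.1% of all genes called higher and 5.14% lower. The call of Mag was lost with median-of-ratios scaling. Rpl22, the gene that carries the tag, was lower in the inputs at 6 h (-0.27, adjusted p = 0.0353, limma; called in 9 of 16). The part of these cells in the members' values was not tested.

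The members' transcripts are GC-rich and short. The longest GENCODE M21 transcript of each ran from 47.4% GC (Pnma2) to 64.1% GC (Vgf), with a median of 56.3% beside 49.7% over the genes fitted, and 9 of 10 members lay above that median. Their lengths ran from 903 bases (Bex2) to 5518 bases (Pnma2), with a median of 1756 beside 2858 bases, and 8 of 10 were shorter than the median gene. Both properties moved with the Sox2 IP difference at 6 h over all genes. The median log2 fold change was -0.25 in the decile of genes with the highest GC content. It was between -0.07 and 0.001 in the 6 deciles below 51.6% GC. By length it was -0.36 in the decile of the shortest genes and 0.06 in that of the longest. The members' values ran from -5.82 to -1.71. They were chosen for low values in this contrast, so nothing is read from their distance to these medians. The part of either property in the members' values was not tested.

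**Figure D5:**
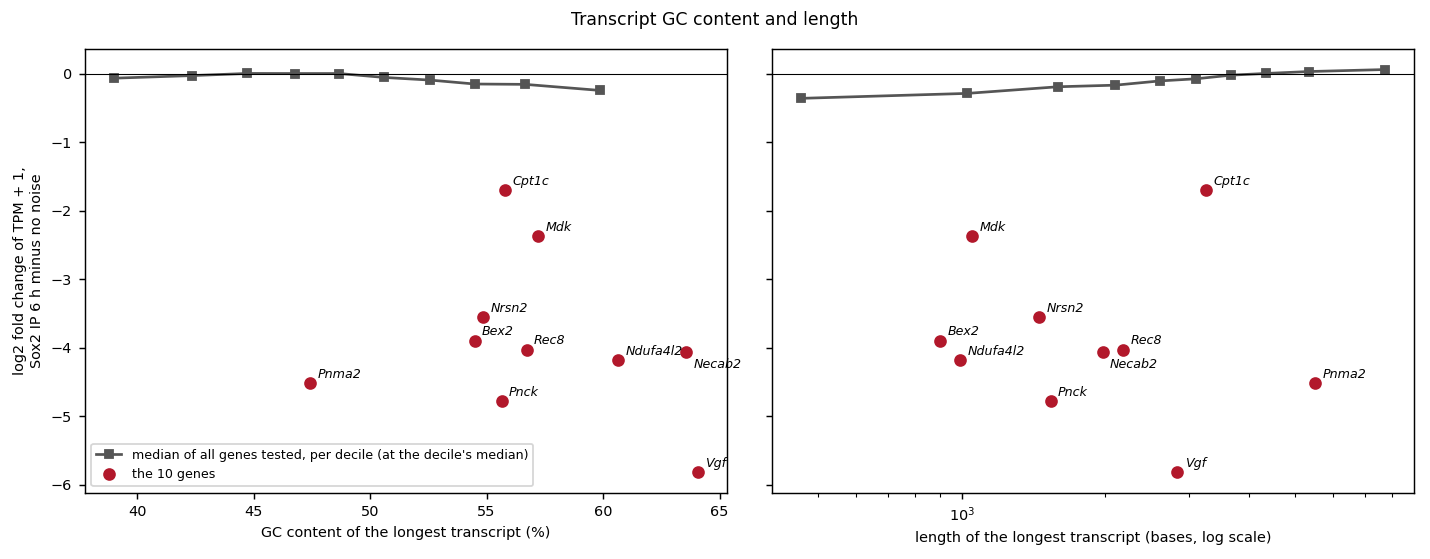
Log2 fold change of TPM + 1 in Sox2 IPs at 6 h against no noise (y axis) by GC content (left, percent) and length (right, bases, log axis) of the longest transcript; red points are the 10 genes and grey squares the median of all genes per decile. The grey medians lie between -0.36 and 0.06. The red points lie between -5.82 and -1.71, in the contrast that chose these genes.

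By design the genes most like the members over the 12 group means (Pearson r of a gene's log2(TPM + 1) with the mean standardised profile of the members, 14933 genes compared) are only a description. The 5 highest were Stmn4 (0.97), Ptprn, Fkbp8 and Camkv (each 0.95 when rounded) and 1700003E16Rik (0.94). Stmn4 is a neuronal tubulin-binding stathmin, Ptprn a membrane protein of dense-core vesicles, Camkv a kinase-like protein of vesicles and Fkbp8 a mitochondrial immunophilin. Camkv averaged 116 TPM in Sox2 IPs without noise, 0.092 TPM at 6 h and 9.81 TPM at 24 h, and Ptprn 57.6 TPM without noise, 3.58 TPM at 6 h and 19.2 TPM at 24 h. Among the members themselves Pnck followed the mean profile most closely (0.99), and Rec8 (0.70), Ndufa4l2 and Cpt1c (0.71 each) least. Those 3 are also the members of which at least 1 library elsewhere exceeded a Sox2 IP without noise, although their highest group mean was in those IPs as well.

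Some of the values could hold reads of other genes. Of the 31-base words in the Bex2 transcript 35.5% also occur in other genes, 18.7% in Bex3 alone, so the level of Bex2 is uncertain, and for Mdk it is 4.3%, all in the pseudogene Mdk-ps1. For each of the other 8 members less than 1% were shared. Nrsn2 overlaps the antisense transcript Gm14164 over 6570 bases, Cpt1c overlaps the antisense gene 6530437J22Rik over 3875 bases, and Ndufa4l2 overlaps Shmt2 on the other strand over 32 bases. The libraries were made with a kit that keeps the strand, and whether counting used it is not given in the sources used here.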

How the data were processed

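Library preparation used NEBNext Ultra Directional reagents, per the labels; these name biological triplicates, but the Sox2 groups without noise and at 6 h hold 2 libraries each here. Reads were aligned with TopHat to GRCm38, per the submitters' processing notes; neither counter nor annotation is given in the sources used here. The authors deposited TPM per gene and library, used as deposited: values sum to 1000000, so depth is unknown and no count test applies. The 10 genes and all gene lists were chosen with earlier results of these data known. Genes named besides the 10 members were taken, per list, from the 2 with the smallest p in the Sox2 IP at 6 h. From those that passed, the 2 with the smallest p in each comparison over time were also used. List genes of the IP against input comparisons are given as counts only. Gap43, Prph and Nefl were picked after their values were seen, and some lists have fewer genes named or none. Sox2, Slc26a5 and Rpl22 were added as label checks, with the 5 genes most like the members. Genes reaching 1 TPM in 3 libraries (2 for Sox2 IPs, 5 for inputs) were fitted as log2(TPM + 1) with limma 3.58.1 (lmFit, eBayes with trend; R 4.3.3), Benjamini-Hochberg adjusted over all genes, threshold 0.05. Each fit was repeated without the filter, with pseudocount 0.1, with scaling by median of ratios, with a replicate block, on each strain's inputs alone, and without each library in turn. IP and input of a sample pair by design (r of their deviations 0.0271 to 0.307 over 16 pairs). Tested on simulated data for the Prestin IP at 6 h (17598 genes), the fit found 24 of 100 changes of 1 log2 unit and 66 of 100 of 2 log2 units, with 2 false calls. Highest r between 2 libraries was 0.9824, so none was a copy.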

Additional observations from a re-analysis of the deposited data

How the results depend on the processing

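No member's direction in the Sox2 IP at 6 h depended on a setting tried; 14 of 40 member values under other settings and 14 of 70 with 1 library left out moved by more than the replicate spread. Genes called there went from 122 to 242 with a pseudocount of 0.1, 66 without a filter, 0 with the replicate number as a replicate block (1704 at an unadjusted p under 0.05), and 23 to 369 with 1 library left out. In Prestin IPs at 6 h, 940 genes were called, 415 without a filter, 307 with median-of-ratios scaling, 91 with the replicate block and 90 to 899 with 1 library left out; members called were 1, and 0 with that scaling or the replicate block (0 to 1 leaving out libraries). At 24 h, 1041 were called, 573 with that scaling, 106 with the replicate block and 69 to 1058 leaving out libraries; members called were 1, and 0 without a filter, with that scaling or with the replicate block (0 to 1 leaving out libraries; Necab2 was the 1 without replicate 1 of the unexposed group). Inputs at 6 h gave 1213 genes, 643 with the replicate block, 661 in Prestin inputs alone, 151 in Sox2 inputs alone and 778 to 1605 leaving out libraries (members 0 to 2). Inputs at 24 h gave 631 genes, 329 with the replicate block, 0 in Sox2 inputs alone (1190 at an unadjusted p under 0.05) and 444 to 861 leaving out libraries (members 0). Sox2 IP against input gave 9774 genes, 5326 with median-of-ratios scaling and 7173 to 8638 leaving out samples; members called were 2, 4 with that scaling and 1 to 2 leaving out samples. Prestin IP against input gave 13218 genes and 12828 to 13157 leaving out samples (members 5 to 6). Values that changed sign were, in inputs at 6 h, Cpt1c (-0.042 with the replicate block, -0.32 in Prestin inputs alone) and Vgf (0.071 in Prestin inputs alone); in inputs at 24 h, Vgf (0.038 with the replicate block, 0.33 in Prestin inputs alone), Rec8 (-0.15 and -0.069) and Cpt1c (-0.041 in Prestin inputs alone); and with median-of-ratios scaling Vgf (-0.22), Pnck (-0.66), Pnma2 (-0.15), Bex2 (-0.87) and Cpt1c (-0.40) in the Sox2 IP against input and Pnck (-0.54) and Cpt1c (-0.088) in the Prestin IP against input. Leaving out 1 library also turned the sign of small fold changes: in Prestin IPs Pnma2 (-0.52 to 0.017), Ndufa4l2 (-1.22 to 0.027) and Mdk (-0.22 to 0.61) at 6 h and Vgf (-0.45 to 0.21) and Ndufa4l2 (-0.21 to 0.44) at 24 h; in inputs Cpt1c (-0.11 to 0.16) at 6 h and Vgf (-0.76 to 0.15) and Rec8 (-0.080 to 0.15) at 24 h; in the Sox2 IP against input Bex2 (-0.037 and -0.095 without sample 1 or 2); in the Prestin IP against input Vgf (up to 0.022) and Ndufa4l2 (up to 0.067) without the 6 h sample 2. Same-numbered samples of different conditions did not deviate together (24 pairs, r -0.0863 to 0.0803). What a loss under the replicate block means for the size of an effect was not tested, nor was the cause of these changes.

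With 2 libraries in 2 of the Sox2 groups and depth unknown, values at or near 0 at 6 h cannot be told from low ones.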
